A study of Mus musculus with 81 samples.

Results

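Accessible chromatin was followed at 10 mouse genes that mark the epithelial state gained in a mesenchymal-epithelial transition: Cdh1, Epcam, Esrp1, Grhl2, Ovol1, Krt8, Krt18, Krt19, Crb3 and Rab25. The list is of names and its rule uses no measured value, though earlier results of these data were known when it was drawn up, and they are 10 of 21900 protein-coding genes with a gene model. A locus was the gene model of build mm10 with 10 kb on each side, and a start was called open in a list when a peak lay within 1 kb of it. All 10 genes had at least 1 peak in their locus in each of the 9 bulk lists, as did 83.0% to 87.4% of all loci. At Crb3 the MEF bulk peaks all lay at the start of its neighbour Slc25a23.

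In a mesenchymal-epithelial transition, migratory cells such as fibroblasts take on cell-cell junctions, apical-basal polarity and simple-epithelium keratins. Zinc-finger repressors of the ZEB and SNAI families hold these genes off in mesenchymal cells by binding E-boxes, and grainyhead factors such as GRHL2 act on the epithelial side. Fibroblasts reprogrammed to pluripotency pass through such a transition early, and naive embryonic stem cells carry E-cadherin, the product of Cdh1, at their contacts.

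The study profiled 81 samples in 27 groups of 3 by ATAC-seq, in which a transposase cuts accessible DNA, and by repli-ATAC-seq, in which newly copied DNA is labelled with EdU and captured. Wild-type 129/Ola embryonic stem (ES) cells at passages 35 to 45 were grown with LIF, a Gsk3 inhibitor and a MEK inhibitor, which was exchanged for an FGFR inhibitor before induction, and were sampled at 0 h, 9 h and 48 h on their way to epiblast-like cells (EpiLC) in FGF2 and Activin A. Mouse embryonic fibroblasts (MEF) at passages 2 to 3, of the line labelled Black6-129X1/SvJ, were heterozygous for Col1a1::tetOP-OKSM (the reprogramming factors Oct4, Klf4, Sox2 and Myc under a doxycycline promoter), for the transactivator R26-M2rtTA and for Oct4GFP. Every MEF group received 2 µg/mL doxycycline with LIF and ascorbic acid, and uninduced MEF were not analysed here. MEF were sampled at 6 h, 12 h and 36 h, and at 60 h in fractions Q1 to Q4 of CellTrace Violet, a dye diluted by division; which of the fractions was brightest is not stated. For repli-ATAC-seq, a 10 min pulse of 20 µM EdU was followed by collection at once (nascent) or, after a chase with 10 µM thymidine, 2 h from the label (mature), and the DNA not captured is called bulk. The MEF course had 1 bulk group beside the nascent arm and 1 beside the mature arm. In the last experiment induced MEF were exposed from 4 h to 5 µg/mL aphidicolin, which blocks DNA polymerases, for 10 h, and untreated induced MEF were harvested at the same time, 14 h.

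Depth was known only for the aphidicolin experiment, with 41183769 to 49440524 counts in each untreated library and 55158844 to 78677381 in each treated one. Every other group had 1 pooled peak list and so no spread between replicates. Bulk lists held 137173 to 203188 peaks and sorted-fraction lists 57762 to 73518, and peaks with weak signal are lost from shorter lists. Open starts of marker genes separated the cell types only in part. All 6 ES markers with an entry in the promoter table were open in the 3 ES bulk lists, but 4 or 5 of them were also open in each MEF bulk list (Pou5f1, Sox2, Esrrb and Tdgf1 in all 6), and Nanog was the one closed in every MEF list. Of the 9 fibroblast markers 5 had an entry in that table. All 5 were open in the 6 MEF bulk lists, and 3 of them (Col1a2, Pdgfra and Twist2) also in the 3 ES bulk lists. Over all starts of the table, 66.7% to 72.0% were open in the 9 bulk lists. Of the 6 basal keratinocyte markers, the 3 with an entry (Krt5, Krt14 and Sfn) were closed in every MEF list. Of the mesothelial markers Upk3b was closed in all 25 lists, and Lrrn4 was open in all 9 bulk lists. The macrophage gene Cd68 and the endothelial genes Kdr and Tek were also open in all 9, while Ptprc was closed in them and Emcn was closed in MEF bulk.

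The stretch before the start is shown for every member with an entry in the RefSeq promoter table (GRCm38.p6), 5 in all. The table set which members are shown, and the motif did not. These stretches lay wholly or partly under a peak in at least 1 ES bulk list. They were searched for the E-box of the ZEB and SNAI repressors (CAGGTG) and for other motifs. Each is the 250 bases before the start, 5′ to 3′ on the gene's strand. Capitals mark CAGGTG on either strand (CACCTG is the same site on the other strand) and AACNNGTT, a grainyhead motif. They lie at chr17:87635729-87635978 (Epcam, plus strand), chr15:102004343-102004592 (Krt8, minus), chr15:102027966-102028215 (Krt18, plus), chr17:57061951-57062200 (Crb3, plus) and chr3:88548280-88548529 (Rab25, minus).
Epcam: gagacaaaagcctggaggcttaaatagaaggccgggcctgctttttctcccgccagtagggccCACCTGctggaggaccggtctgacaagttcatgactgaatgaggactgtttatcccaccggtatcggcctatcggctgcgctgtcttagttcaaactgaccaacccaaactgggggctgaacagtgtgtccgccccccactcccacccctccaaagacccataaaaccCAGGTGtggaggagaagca
Krt8: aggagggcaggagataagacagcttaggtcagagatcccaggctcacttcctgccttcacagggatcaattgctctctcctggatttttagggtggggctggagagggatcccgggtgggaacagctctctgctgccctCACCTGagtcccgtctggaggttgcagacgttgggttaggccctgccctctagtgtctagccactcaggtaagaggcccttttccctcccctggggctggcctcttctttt
Krt18: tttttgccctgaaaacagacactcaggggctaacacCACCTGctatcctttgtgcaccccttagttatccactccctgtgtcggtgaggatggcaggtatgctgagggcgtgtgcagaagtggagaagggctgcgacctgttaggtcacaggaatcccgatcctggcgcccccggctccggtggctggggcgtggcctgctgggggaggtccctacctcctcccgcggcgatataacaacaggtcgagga
Crb3: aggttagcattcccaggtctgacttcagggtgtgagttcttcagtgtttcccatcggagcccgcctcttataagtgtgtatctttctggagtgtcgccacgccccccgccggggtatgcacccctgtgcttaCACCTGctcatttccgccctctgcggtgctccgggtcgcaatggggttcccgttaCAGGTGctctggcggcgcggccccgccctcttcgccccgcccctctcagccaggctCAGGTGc
Rab25: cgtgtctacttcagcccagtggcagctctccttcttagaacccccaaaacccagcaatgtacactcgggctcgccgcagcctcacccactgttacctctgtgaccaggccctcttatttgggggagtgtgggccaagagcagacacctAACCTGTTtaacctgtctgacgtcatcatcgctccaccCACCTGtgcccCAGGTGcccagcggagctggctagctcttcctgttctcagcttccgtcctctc

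CAGGTG was found in all 5 of these promoters, and in 16.5% of the 17492 promoters in the table. No sequence was at hand for the other 5 members, and the difference was not tested. Crb3 held 3 copies, at 118, 63 and 7 bases before the start. Epcam held 2 (187 and 19 bases) and Rab25 held 2 (64 and 53 bases), while Krt8 and Krt18 held 1 each, at 111 and 214 bases. AACNNGTT occurred once, in Rab25 at 102 bases before the start, against 3.73% of all promoters; its narrower form AACCGGTT was in 0 of the 5 and in 0.143% of all. CCNCNCCC, the pattern of KLF factors, was in all 5 and in 52.1% of all promoters, and is not capitalised. The GC content of the 5 was 56.4% to 63.2%, against a median of 55.2%. These matches describe letters in the window and are not evidence of binding.

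In the ES course the number of open member starts went from 8 of 10 at 0 h to 9 at 9 h and 10 at 48 h. Over all 17492 starts of the promoter table the share open was 70.6%, 70.3% and 72.0% in the same lists. Here and below, that table lacks Cdh1, Esrp1, Grhl2, Ovol1 and Krt19, whose starts are ends of the gene model. Crb3 was added at 9 h and Rab25 at 48 h, and no start was lost; between 0 h and 48 h, 3.08% of all starts gained a peak and 1.71% lost theirs. In MEF bulk, 8, 9 and 9 of 10 member starts were open at 6 h, 12 h and 36 h (all starts 67.4%, 69.1% and 66.7%), and 8, 9 and 8 in the mature-arm bulk (68.5%, 68.2% and 66.9%). Rab25 was open from 12 h (1.35% of all starts gained a peak between 6 h and 36 h and 2.04% lost theirs), Crb3 was closed in every MEF list, and Krt18 was closed in the mature-arm bulk at 36 h (from 6 h to 36 h in that arm, 0.709% of all starts gained a peak and 2.32% lost theirs). Fewer cells of a type and less accessibility in each cell cannot be told apart in these bulk samples.

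Many of the MEF peaks counted as open lay beside the start and not on it. With a reach of 100 bp, a distance chosen after the data were seen, 6, 7 and 10 members were covered in the ES bulk lists (all starts 66.6%, 66.3% and 67.7%) and 5, 5 and 5 in the MEF bulk lists (62.9%, 64.8% and 62.8%). The 5 in MEF bulk were Cdh1, Grhl2, Ovol1, Krt18 and Krt19 at all 3 times. In the mature-arm bulk at 36 h, 2 members were covered (63.0% of all starts), Cdh1 and Krt19. The start peaks of Epcam, Esrp1, Krt8 and Rab25 in MEF lay off the start itself, as given below gene by gene.

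**Figure D1:**
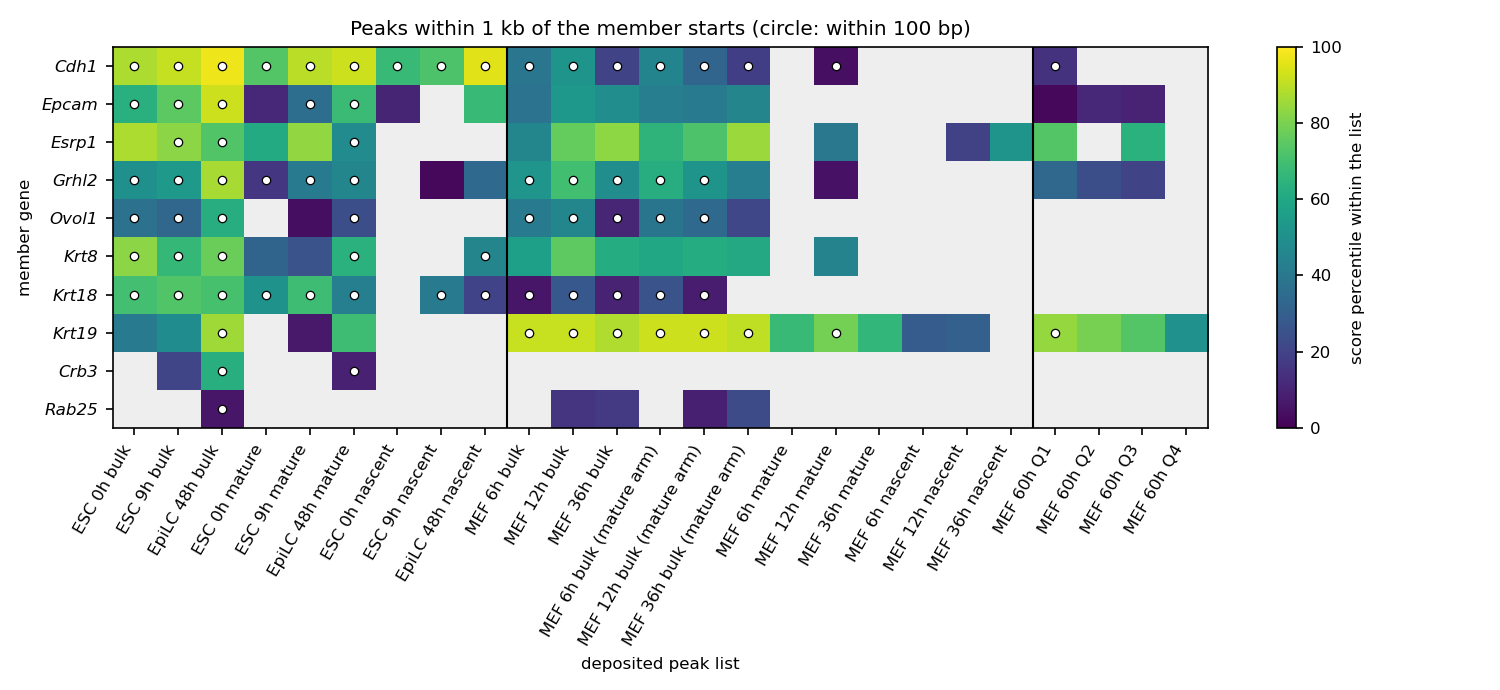
Peaks within 1 kb of each member start (y axis) in the 25 pooled lists (x axis). Colour is the percentile of the authors' peak score within that list, grey means no peak, and a circle marks a peak within 100 bp. Crb3 is grey in every MEF list, and Krt19 is coloured in all 6 MEF bulk lists and all 4 sorted fractions.

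The plot of start peaks shows the 2 cell types side by side, with score percentiles read within each list only. At Cdh1 the start peak exceeded 87.5% or more of the peaks in each ES bulk list and 51.7% or fewer in each MEF bulk list. At Krt19 it exceeded 88.3% or more in each MEF bulk list, and in ES bulk it lay inside the gene at 0 h and 9 h.

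Cdh1, which encodes E-cadherin, the homophilic receptor of adherens junctions, had a start peak in all 9 ES lists, including the 3 nascent lists. Its score exceeded 87.5%, 91.0% and 97.4% of the peaks in the ES bulk lists at 0 h, 9 h and 48 h. In MEF bulk the start peak (mm10 chr8:106603282-106603701 at 6 h) exceeded 39.3%, 51.7% and 20.3% of its lists at 6 h, 12 h and 36 h. In the fractions it was present in Q1, at a percentile of 14.8, and in none of Q2 to Q4.

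Inside Cdh1, ES cells and MEF used partly different sites. Peaks of the 25 lists that overlapped by at least 1 bp were merged into 154 sites over the 10 loci, 36 of them at Cdh1, of which 17 were in ES bulk alone, 7 in MEF bulk alone and 11 in both. Of the MEF-only sites, those centred 21.6 kb (chr8:106624737-106625200) and 37.7 kb (chr8:106640722-106641318) into the gene were in all 6 MEF bulk lists and all 4 fractions. A neighbouring site at 37.0 kb (chr8:106640138-106640510) was in the 3 ES bulk lists and in no MEF list. The site 16.5 kb into the gene (chr8:106619433-106620182) was in 24 of the 25 lists, and the one beyond the gene's end (71.7 kb from the start, chr8:106674422-106675587) was in all 9 ES lists and 1 MEF list, bulk at 12 h. These sites were picked for display after their patterns were seen.

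Epcam, which encodes a cell-surface adhesion protein of epithelia and pluripotent cells, had few sites and most of them in ES cells. Its locus held 3, 5 and 4 peaks in ES bulk and 1 in every MEF bulk list. The ES peak at 48 h (chr17:87635656-87636059) covered the start and exceeded 92.6% of its list; at 0 h and 9 h the percentiles were 63.6 and 74.9. The MEF peak began inside the gene, at chr17:87636209-87637177 at 6 h, and exceeded 37.9%, 53.2% and 48.9% of its lists. It was in Q1, Q2 and Q3 at percentiles of 2.03 to 11.4, and absent from Q4. Of 6 merged sites at Epcam, 5 were in ES bulk alone and 0 in MEF bulk alone.

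**Figure D2:**
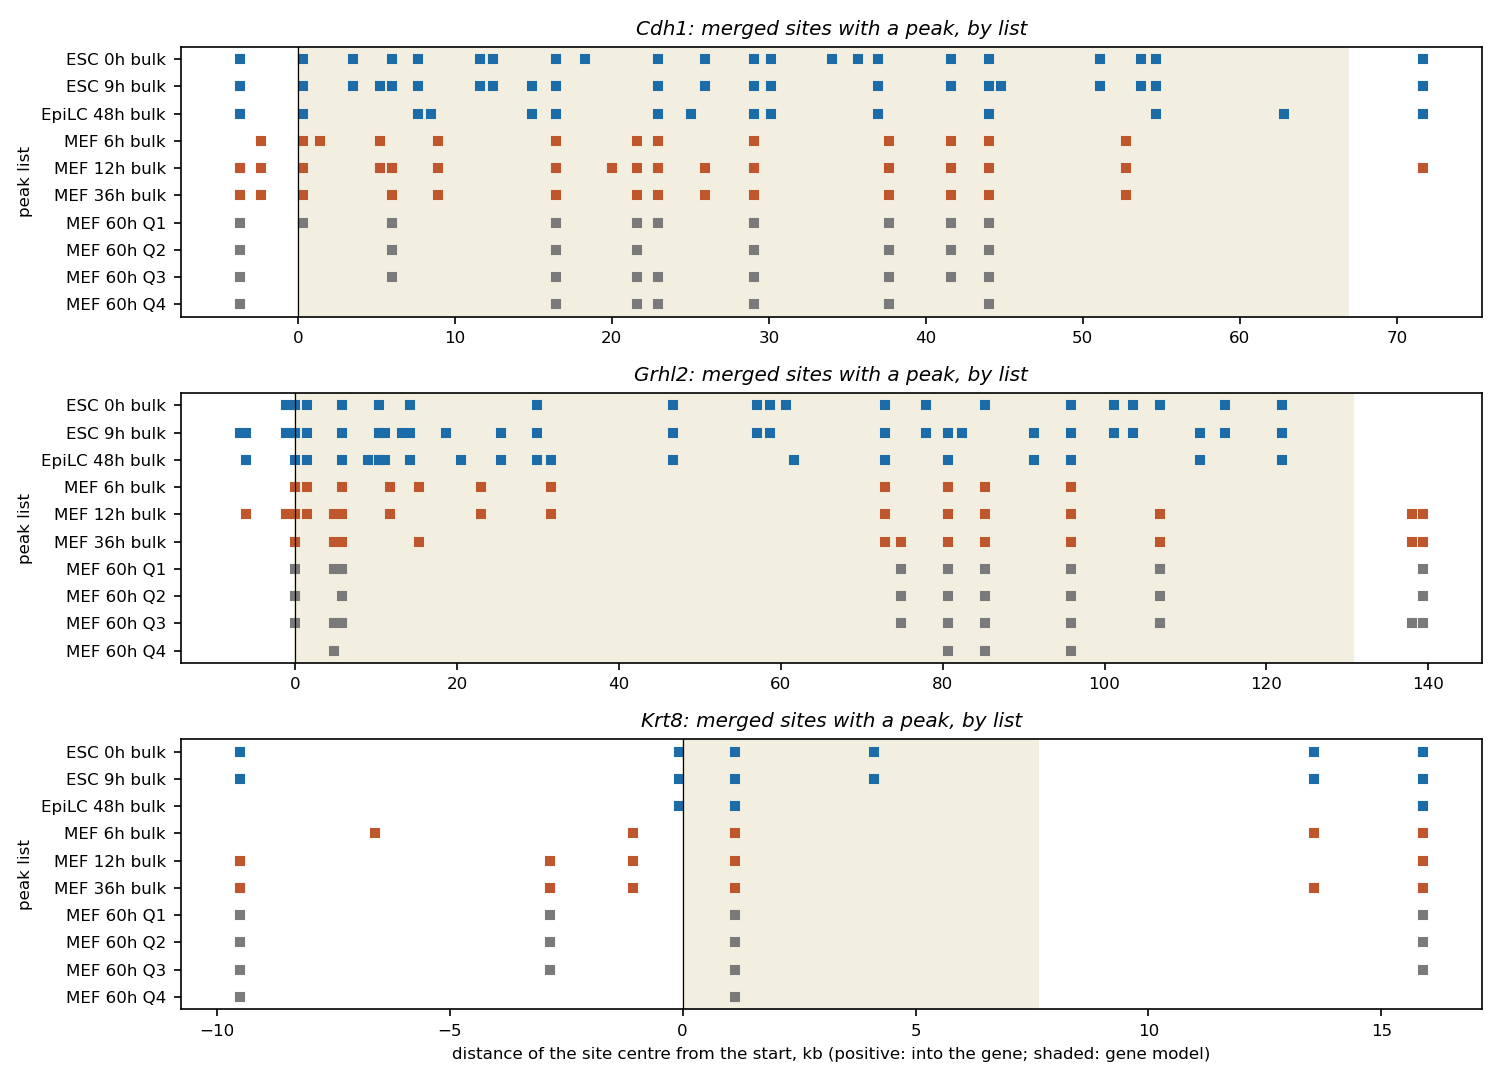
Merged sites with a peak at Cdh1, Grhl2 and Krt8 by list: x axis, distance of the site's centre from the start in kb (positive into the gene, shaded gene model); y axis, 10 peak lists (blue ES course, orange MEF bulk of the nascent arm, grey 60 h fractions). The Cdh1 sites at 21.6 and 37.7 kb appear only in orange and grey lists, and the Krt8 start site only in blue ones.

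In the maps of Cdh1, Grhl2 and Krt8 the sites of the fractions were also seen in MEF bulk, and long runs of sites in the Grhl2 and Cdh1 genes were of ES cells. Sites were merged in the member loci only, so no count of merged sites has a share over all loci beside it. Whether other loci differ was not tested. Over all 10 loci, 74 of the 154 sites were in ES bulk alone and 0 of those 74 were in a sorted fraction. Another 33 were in MEF bulk alone, 11 of them in a fraction, and 43 were in both, 27 of them in a fraction.

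Esrp1, which encodes a splicing regulator that sets epithelial isoforms, had a site just before its start (centred at -1.07 kb, chr4:11387185-11388528) in all 9 bulk lists. A second site on the start (chr4:11386477-11387058) was in ES bulk at 9 h and 48 h and in no MEF list. The upstream peak exceeded 45.9%, 76.3% and 83.2% of the MEF bulk peaks at 6 h, 12 h and 36 h, and 65.0%, 72.0% and 84.9% in the mature-arm bulk. It was the only member start open in MEF nascent chromatin at 36 h. Its locus went from 6 to 11 peaks between 0 h and 48 h in the ES course, with 4 sites gained and 0 lost.

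Grhl2, which encodes a grainyhead factor that activates Cdh1 and other epithelial genes, held the most sites (43), 23 in ES bulk alone, 7 in MEF bulk alone and 11 in both. Its start was covered in all 3 ES bulk lists and all 3 MEF bulk lists of the nascent arm. In MEF bulk the start peak (chr15:37232240-37232827 at 6 h) exceeded 52.3%, 69.6% and 48.9% of its lists. Of the 7 member sites that were absent from both MEF bulk lists at 6 h and present in both at 36 h, 4 lay at Grhl2, at 74.9, 107, 138 and 139 kb from the start. Each of these 4 was in Q3, 3 of them in Q1 and Q2 too, and 0 in Q4. The last 2 lie past the end of Grhl2, and which gene they act on was not tested. At the same locus 2 sites were lost by 36 h in both arms, at 1.43 and 22.9 kb.

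Ovol1, which encodes a zinc-finger repressor of mesenchymal genes, had an open start in all 9 bulk lists and in none of the fractions. The highest-scoring peak within 1 kb exceeded 37.6%, 33.1% and 62.4% of the ES bulk lists and 41.4%, 45.7% and 10.6% of the MEF bulk lists. In MEF bulk at 36 h that peak (chr19:5560894-5561432) lay off the start, and a different peak (chr19:5559952-5560589) covered it. A shared site lay 6.85 kb into the gene (chr19:5552859-5554588) and was in every bulk list and all 4 fractions. The locus held 5, 5 and 7 peaks in ES bulk and 7, 6 and 6 in MEF bulk.

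The keratins did not behave alike. Krt8 and Krt18 encode the partner type II and type I filaments of simple epithelia. At Krt8 a site on the start (chr15:102004223-102004623) was in ES bulk alone, at all 3 times. A site centred at -1.07 kb (chr15:102005196-102005632) was in MEF bulk alone, in all 6 lists, and a site 1.12 kb into the gene (chr15:102002845-102003593) was in every bulk list and all 4 fractions. At Krt18 the start was covered in all 3 ES bulk lists, where its peak exceeded 70.1%, 72.9% and 70.8% of peaks, and in the MEF bulk lists at percentiles of 6.01, 27.6 and 9.64. Krt18 had no start peak in any fraction.

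Krt19, which encodes a type I keratin of simple and ductal epithelia, had its MEF start peak just upstream (chr11:100145952-100146465 at 6 h), above 91.7%, 91.4% and 88.3% of the MEF bulk peaks. It was the only member start open in all 4 fractions, at percentiles of 84.0, 79.4, 73.3 and 50.7 in Q1 to Q4, and the only one open in MEF nascent chromatin at 6 h. In ES bulk at 0 h and 9 h the Krt19 peak lay inside the gene (chr11:100144948-100145415 at 0 h), at percentiles of 40.7 and 48.5. At 48 h a longer peak reached the start (chr11:100144909-100146194, percentile 85.6). The site centred at -1.84 kb (chr11:100147530-100148002) was in all 6 MEF bulk lists and all 4 fractions and in no ES list.

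Crb3 and Rab25, of polarity and trafficking, were the members least open in MEF. Crb3 encodes a Crumbs protein of the apical membrane and tight junction. Its own start was open in ES bulk at 9 h and 48 h (chr17:57062078-57062794 at 48 h, percentile 63.0). All MEF peaks of the Crb3 locus were at the start of its neighbour Slc25a23 (chr17:57059087-57060989), a site in 24 of the 25 lists. Rab25 encodes a small GTPase of apical recycling endosomes. A weak peak covered its start at 48 h in EpiLC (chr3:88548248-88548388, percentile 6.22). In MEF a different site 1.04 kb into the gene (chr3:88547050-88547435) was present at 12 h and 36 h in both arms, at percentiles of 8.95 to 23.2, and absent at 6 h and in all 4 fractions. Of the 12 sites at Rab25, 3 lay at starts of Mex3a, Lamtor2 or Ubqln4.

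Peak numbers over whole loci had no common direction in the ES course. The 10 loci held 80, 97 and 85 peaks at 0 h, 9 h and 48 h. From 0 h to 48 h, 5 members had more peaks (Epcam, Esrp1, Ovol1, Crb3 and Rab25) and 3 had fewer (Cdh1, Krt8 and Krt19), where 37.6% of all loci had more and 32.4% fewer. In sites, 27 were gained and 29 lost, with 4 gained and 11 lost at Cdh1 and 10 gained and 10 lost at Grhl2. Of the 80 peaks at 0 h, 36.3% had no overlapping peak at 48 h, against 37.2% of all peaks in coding loci.

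In reprogramming MEF the member loci kept more of their peaks than other loci did. They held 57, 69 and 62 peaks at 6 h, 12 h and 36 h, and 65, 66 and 63 in the mature-arm bulk. From 6 h to 36 h, 6 members had more peaks (Cdh1, Esrp1, Grhl2, Krt8, Krt19 and Rab25) and 2 had fewer (Ovol1 and Krt18), against 18.5% of all loci with more and 43.9% with fewer. In the mature-arm bulk 3 had more (Esrp1, Grhl2 and Krt19) and 3 fewer (Ovol1, Krt8 and Krt18), against 11.6% and 51.9%. Of the 57 peaks at 6 h, 15.8% were without a peak at 36 h, where the share was 34.8% over all coding loci, and in the mature arm it was 16.9% against 35.3%. With 1 list per group these differences have no test.

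**Figure D3:**
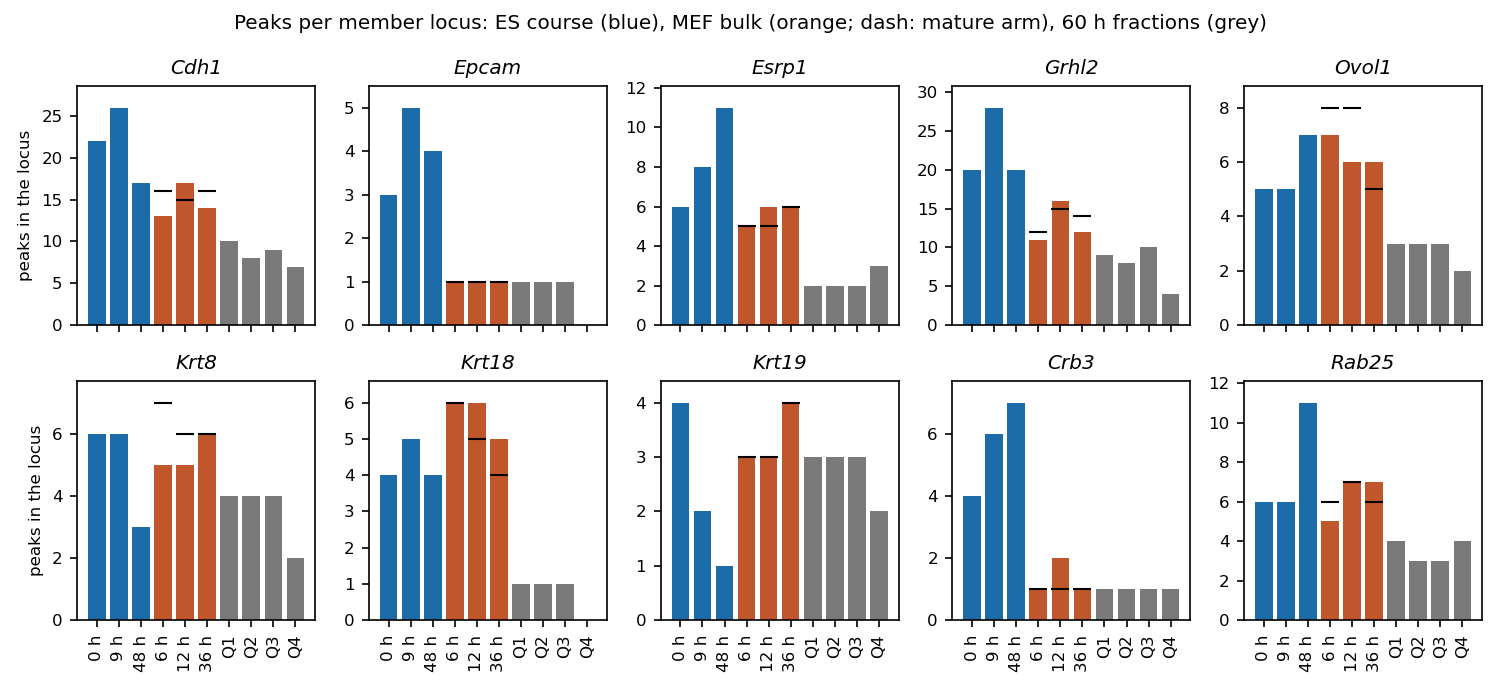
Number of peaks (y axis) in each member locus in the ES bulk lists (blue), the MEF bulk lists of the nascent arm (orange, with a dash at the mature-arm value) and the 60 h fractions (grey). Epcam and Crb3 have at most 2 peaks in every MEF list, and Cdh1 and Grhl2 have the most in each ES and MEF bulk list.

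The plot of peaks per locus also shows fewer peaks in the fractions at 60 h than in 36 h bulk, and the fraction lists are shorter. Between 36 h and Q1, 0 members had more peaks and 8 had fewer, with 3.62% and 62.8% of all loci doing so. When the lists were cut to their 57762 highest-scoring peaks, the member loci held 27 peaks in ES cells at 0 h, 42 in EpiLC at 48 h, 18 in MEF at 6 h, 25 at 36 h, 31 in Q1 and 25 in Q4. These were 6.44, 9.99, 4.54, 5.97, 7.18 and 5.91 of every 10000 peaks in coding loci of the same lists. On that footing 5, 9, 1, 3, 3 and 1 member starts were open, beside 61.3%, 64.9%, 54.9%, 58.7%, 58.4% and 56.7% of all starts.

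Among the fractions, Q4 had the fewest open member starts. Q1 to Q4 had 5, 3, 4 and 1 (all starts 61.8%, 61.5%, 62.0% and 56.7%). Krt19 was open in all 4, Epcam and Grhl2 in Q1 to Q3, Esrp1 in Q1 and Q3, and Cdh1 in Q1. Open in Q1 and closed in Q4 were 4 of the 10 (Cdh1, Epcam, Esrp1 and Grhl2), against 5.35% of all starts. At Esrp1 this turned on the edge of the 1 kb reach: the nearest peak lay 954 bp from the start in Q1, 1018 bp in Q2, 975 bp in Q3 and 1020 bp in Q4. Of the 9 starts open in MEF bulk at 36 h, 8 were closed in Q4 and 4 (Ovol1, Krt8, Krt18 and Rab25) in all of Q1 to Q4, where 10.0% and 3.66% of all starts were open at 36 h and closed in that way. Krt8 was also a matter of the edge, since its site inside the gene kept a peak in all 4 fractions, 1017 to 1111 bp from the start, against 862 bp in bulk at 36 h. At the other 6 starts closed in Q4 the nearest Q4 peak was 3.28 to 22.3 kb away. Between Q4 and Q1, 7 members had more peaks in Q1 and 1, Esrp1, had fewer, against 38.6% and 9.14% of all loci. All 25 member peaks of Q4 overlapped a Q1 peak, where 9.47% of Q4 peaks in coding loci did not, and 39.5% of the 38 Q1 peaks had none in Q4 (29.7% over all coding loci). A total of 12 merged sites were in Q1, Q2 and Q3 and not in Q4, and 0 in Q4 and not in Q1, with no share over all loci to set beside them. The list of Q4 was the shortest of the 4. With lists cut to equal length, as above, 3 member starts were open in Q1 and 1 in Q4, and the loci held 31 and 25 peaks. The part of depth in these differences was not tested.

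In newly copied chromatin few member starts were open. In ES cells 2, 3 and 5 were open in the nascent lists at 0 h, 9 h and 48 h (all starts 51.3%, 49.6% and 59.9%), and 6, 8 and 9 in the mature lists (63.4%, 65.9% and 67.0%). Cdh1 was open in all 3 nascent lists, Krt18 and Grhl2 at 9 h and 48 h, Epcam at 0 h and 48 h, and Krt8 at 48 h. In MEF 1, 2 and 1 were open in the nascent lists at 6 h, 12 h and 36 h (10.7%, 49.3% and 48.4%), and 1, 5 and 1 in the mature lists (30.7%, 59.6% and 57.2%). These MEF starts were Krt19 and Esrp1 in nascent chromatin, with Cdh1, Grhl2 and Krt8 added in mature chromatin at 12 h.

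Set against bulk of the same time, a nascent peak overlapped 30.6% of the 85 EpiLC bulk peaks and a mature peak 64.7% of them, against 21.6% and 49.6% over all coding loci. In ES cells at 0 h the shares were 12.5% and 37.5%, against 14.7% and 43.8%. In MEF at 12 h they were 13.0% and 40.6%, against 12.8% and 35.0%, and at 36 h 14.5% and 24.2%, against 14.1% and 30.7%. The members were thus above all coding loci at some times and below at others. Of the 33 merged sites in MEF bulk alone, 0 were in any nascent list, while 9 of the 74 in ES bulk alone and 19 of the 43 in both were. The same shares over all loci were not counted. Nascent lists held 3222 to 27693 peaks, so weak sites would not be listed.

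The aphidicolin experiment asks what accessibility looks like in reprogramming MEF when DNA replication is inhibited. Read counts over regions were compared with edgeR's quasi-likelihood test, adjusted over 138996 regions by Benjamini-Hochberg with a threshold of 0.05, and levels are TMM-normalized CPM (counts scaled to library size) in libraries a, b and c of each group. Whether the replicates are separate cultures is not labelled, so each p-value reflects the spread among these samples alone, and that spread may be technical. Of 54 regions in the member loci, 6 were higher with aphidicolin, 17 were lower and 31 were not called. Among all regions 18.0% were called higher and 17.9% lower (35.9% in all), and among the 94338 regions in coding loci 14.4% and 21.3% (35.7%). The 54 member regions had a median log2 fold change of -0.14, against 0.02 for all regions. Scaling by library totals and not by TMM moved the median of all regions to 0.18, and each change is therefore relative to that of most regions. The count of higher regions was 3 without untreated library b and 2 without aphidicolin library b. When offsets were fitted along region strength, 2 were higher and 10 lower.

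**Figure D4:**
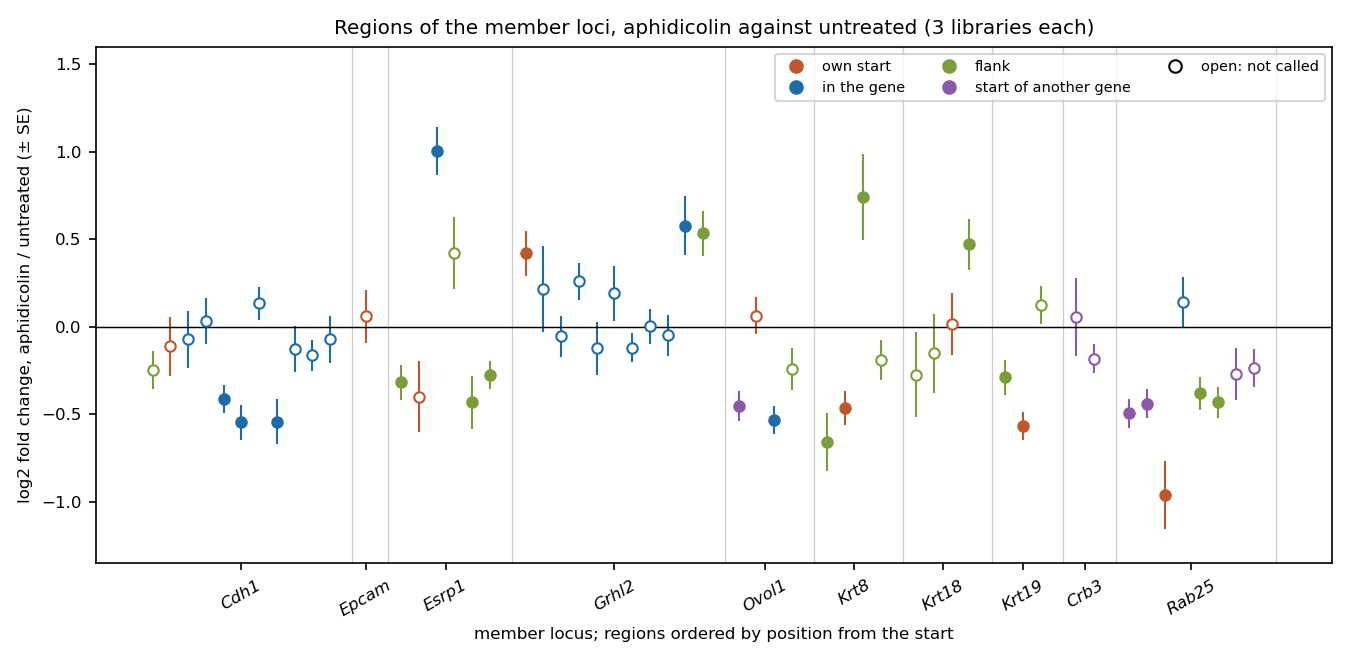
Log2 fold change of aphidicolin over untreated (y axis, ± SE, 3 libraries a group) for the 54 regions of the member loci, ordered by position within each locus (x axis). Filled points were called at an adjusted p below 0.05 and colour gives the region's class. Grhl2 has 3 filled points above 0 and none below; Rab25 has 5 filled points below 0 and none above.

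The plot of region fold changes shows the class of each region beside its change. Regions within 1 kb of a start made up 16 of the 54, with a median of -0.25, and all 13352 such regions had a median of -0.24 (52.0% called, 48.3% lower and 3.69% higher). The 38 away from starts had a median of -0.12, against 0.01 for all such regions of coding loci (33.0% called, 16.8% lower and 16.2% higher). Within 1 kb of the members' own starts (the start regions), 1 of 9 regions was higher and 3 were lower. In 32 of the 54 regions the groups did not overlap, against 46.6% of all regions. Without regions at or inside other coding genes, a choice made after the data were seen, 39 were left, 4 of them higher and 11 lower. Regions entered the table with a peak in all 3 lists of a group. Of the 54, 10 entered through the aphidicolin lists alone, 1 of them higher and 1 lower. For 0 of the 54 was the untreated group the only source. Among all 139000 regions, 36320 owed their entry to treated libraries only and 2012 to untreated ones only. The table thus leans towards sites with peaks under treatment. The higher region of the 10 lay in the Krt8 locus, at 0.33 to 0.45 CPM untreated and 0.61 to 0.72 treated.

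At the adhesion genes the start regions did not pass the test. The Cdh1 start (chr8:106603219-106603810) measured 6.16, 3.05 and 4.97 CPM untreated and 4.58, 4.29 and 4.27 with aphidicolin. The log2 fold change was -0.11 ± 0.17 (SE, adjusted p = 0.632), and the aphidicolin values fell inside the untreated range. The Epcam region (chr17:87636453-87637159) measured 5.73, 3.92 and 3.50 CPM untreated and 5.09, 4.67 and 4.02 treated, a log2 fold change of 0.06 ± 0.15 (adjusted p = 0.784), also with overlap.

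In the Cdh1 locus 3 of 11 regions were lower and 0 higher, against 21.3% and 14.4% of all regions in coding loci. The one with the smallest p lay 21.7 kb into the gene (chr8:106624864-106625156), within the site found in all MEF bulk lists and no ES list. It measured 8.53, 9.84 and 10.7 CPM untreated and 6.47, 6.43 and 7.01 with aphidicolin. It fell by 0.55 ± 0.10 on the log2 scale (adjusted p = 0.000681), and every treated library was below every untreated one.

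Among the regulators, Esrp1 held the largest rise of any member region. The region 20.6 kb into Esrp1 (chr4:11365975-11366406), also in MEF bulk lists and no ES list, measured 1.71, 2.14 and 2.05 CPM untreated and 3.71, 4.01 and 4.09 treated. Its log2 fold change was 1.01 ± 0.14 (adjusted p = 0.000103), and a log2 fold change above 1 was reached by 1.89% of all regions. The Esrp1 start region (chr4:11387310-11387452) changed by -0.40 ± 0.20 (adjusted p = 0.131) and was not called; with offsets fitted along strength it was called lower (-0.70, adjusted p = 0.0227). At this locus 3 other Esrp1 regions, all outside the gene, were lower. Among these, the region chr4:11387852-11388407 lies in the same upstream site as the start region. It measured 9.54, 8.91 and 7.75 CPM untreated and 7.42, 6.57 and 7.10 treated. Its log2 fold change was -0.32 ± 0.10 (adjusted p = 0.0195), with no overlap.

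Grhl2 was the 1 member with higher calls at its start. The region ending at the start (chr15:37232205-37232820) measured 2.83, 2.61 and 2.95 CPM untreated and 3.38, 4.01 and 3.77 treated, a log2 fold change of 0.42 ± 0.13 (adjusted p = 0.0163) with no overlap. This call was lost without untreated library b (adjusted p = 0.0677), without aphidicolin library b (0.0977) or c (0.0586), and with offsets fitted along strength (0.0595). The Grhl2 region with the smallest p, 139 kb from the start (chr15:37371990-37372356), measured 2.83, 2.56 and 3.02 untreated and 3.64, 4.28 and 4.21 treated (log2 fold change 0.53 ± 0.13, adjusted p = 0.00394). It overlaps one of the 4 Grhl2 sites gained by 36 h and lies inside the gene model of Ncald. Of 11 Grhl2 regions 3 were higher and 0 lower, against 14.4% and 21.3% of all regions in coding loci.

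Ovol1 was called lower inside the gene and not at its start. The region 7.34 kb into Ovol1 (chr19:5552864-5553597) measured 25.2, 25.6 and 24.7 CPM untreated and 17.7, 16.8 and 17.6 treated. It fell by 0.53 ± 0.08 (adjusted p = 0.000158), with no overlap, and by 0.28 with offsets fitted along strength (adjusted p = 0.0075). The Ovol1 start (chr19:5560203-5561357) changed by 0.06 ± 0.11 (adjusted p = 0.672).

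Of the start regions at the keratin members, 2 were lower and 1 was not called, where 48.3% of all regions within 1 kb of a start were lower. The Krt19 start (chr11:100145963-100146444) measured 17.1, 17.2 and 17.1 CPM untreated and 11.8, 11.5 and 11.3 treated. It fell by 0.57 ± 0.08 on the log2 scale (adjusted p = 0.000123), and the 2 groups lay far apart. At Krt8 the region centred 1.13 kb into the gene, off the start itself (chr15:102002942-102003482), measured 14.3, 12.1 and 11.8 untreated and 10.1, 8.73 and 8.95 treated. It fell by 0.46 ± 0.10 (adjusted p = 0.00161), again with no overlap. The Krt18 start (chr15:102028067-102028381) measured 2.00, 1.49 and 1.5 untreated and 1.99, 1.53 and 1.58 treated, a log2 fold change of 0.02 ± 0.18 (adjusted p = 0.95). Past the end of Krt18, 6.22 kb from its start (chr15:102034296-102034576), a region at 1.78, 1.87 and 2.12 untreated and 2.65, 2.83 and 2.50 treated rose by 0.47 ± 0.15 (adjusted p = 0.0175). That call was lost without untreated library b (adjusted p = 0.0568), without aphidicolin library b (0.0908) or with offsets fitted along strength (0.0915).

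**Figure D5:**
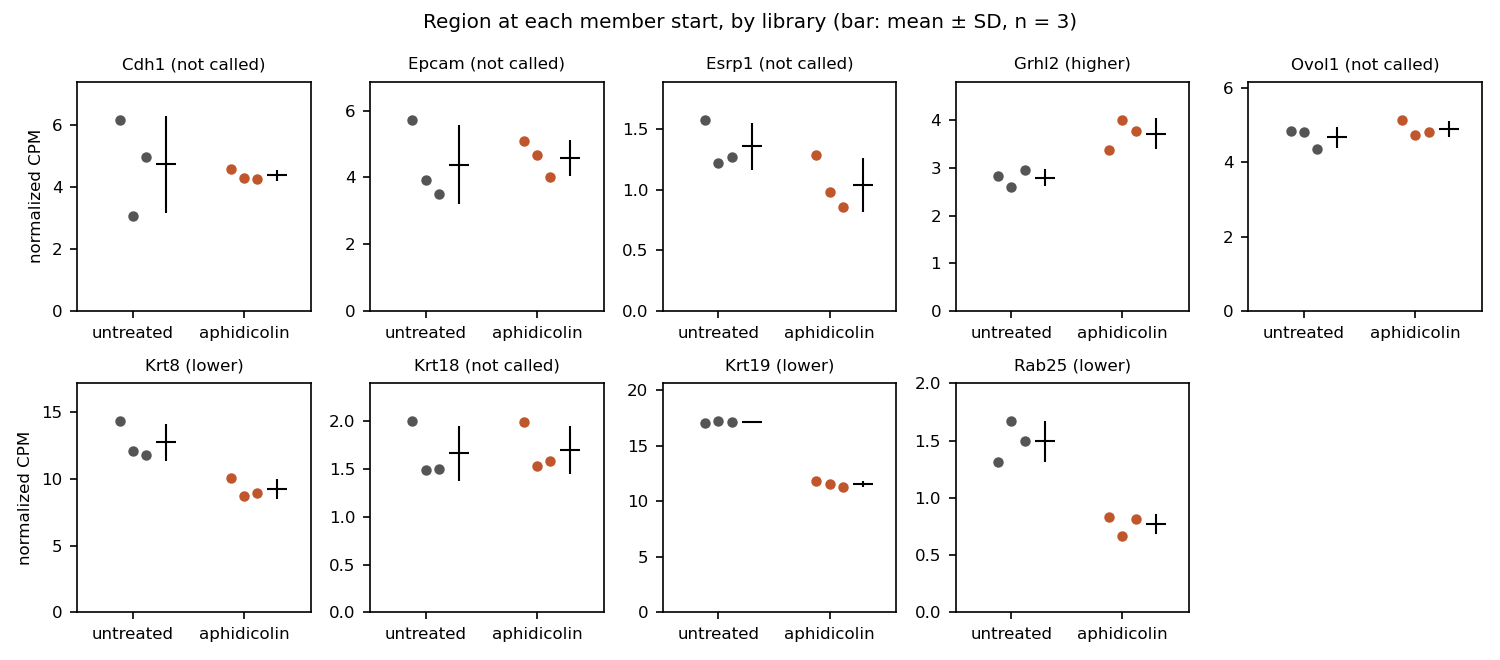
Normalized CPM (y axis, from 0) of the region within 1 kb of each member's start in the 3 untreated and 3 aphidicolin libraries (x axis). Mean ± SD (n = 3) stands beside the points, and Crb3 had no such region. The groups stand apart at Grhl2, Krt8, Krt19 and Rab25 and overlap at Cdh1, Epcam, Esrp1, Ovol1 and Krt18.

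The plot of start regions sets the 3 lower regions beside the Cdh1 start, whose untreated libraries spread most. Of the 3, those of Krt8 and Rab25 lie inside the gene and not on the start. Rab25, at its region 1.06 kb into the gene (chr3:88547143-88547290), measured 1.32, 1.67 and 1.5 CPM untreated and 0.837, 0.669 and 0.813 treated. It fell by 0.96 ± 0.19 on the log2 scale (adjusted p = 0.00134) with no overlap, and it is the site that appeared between 6 h and 12 h in the MEF bulk lists. The Rab25 window's smallest p was at the shared start of Lamtor2 and Ubqln4 (chr3:88553350-88554526), at -0.50 ± 0.08 (adjusted p = 0.000375); with offsets fitted along strength that call was lost (-0.14, adjusted p = 0.0815). Crb3 had no region of its own: both regions in its window lay at the start of Slc25a23, and the one with the smaller p (chr17:57060205-57060805) changed by -0.18 ± 0.08 (adjusted p = 0.0881).

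Counts summed over each locus depended on how libraries were scaled. With TMM on the locus sums, 2 members were higher (Grhl2, 0.28 ± 0.05, adjusted p = 0.0012, and Krt18, 0.29 ± 0.11, adjusted p = 0.0487) and 4 were lower (Rab25, Ovol1, Krt8 and Krt19, by 0.17 to 0.23), against 25.5% and 26.1% of 18144 loci (51.6% in all). The groups did not overlap at 6 of the 10, against 59.0% of all loci. On the scale of the region counts, an alternative added after the data were seen, 0 members were higher and 6 were lower, against 9.15% and 55.6% of all loci (64.7% in all), whose median moved from 0.00 to -0.20. There Grhl2 changed by 0.08 (adjusted p = 0.21) and Krt18 by 0.09 (0.523), while Ovol1 (-0.43), Rab25 (-0.42), Krt8 (-0.39), Krt19 (-0.37), Cdh1 (-0.25) and Esrp1 (-0.20) were lower. Ovol1, Krt8, Krt19 and Rab25 were lower on both scales, and no member was higher on both. Regions of neighbouring genes made up much of some sums. In untreated library a, on the region scale, the Ap5b1 start gave 75.4 of 111.3 CPM at Ovol1. A region in Dpy19l4 gave 37.1 of 53.9 CPM at Esrp1. At Rab25 the regions outside other coding genes gave 1.93 and 1.32 of 149.6 CPM. With TMM on locus sums, leaving out regions at starts of other genes changed no direction or call at the 9 loci left. Regions inside Mex3a still counted at Rab25.

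Several locus calls with TMM on the locus sums were lost when 1 library was left out, a step that also leaves fewer libraries to test. The log2 fold change ranged over the 6 such fits from 0.22 to 0.38 at Krt18, from -0.24 to -0.16 at Krt8 and from -0.21 to -0.14 at Krt19. The higher call at Krt18 was lost without untreated library a (adjusted p = 0.0615) or c (0.114) and without aphidicolin library a (0.168), b (0.1) or c (0.0682). The lower call at Krt8 was lost without untreated library a (0.0582) or c (0.0638) and without aphidicolin library b (0.141) or c (0.0798), and when library totals replaced TMM (0.0677). That at Krt19 was lost without untreated library b (0.0942) and without aphidicolin library a (0.0519) or c (0.0771). Without untreated library a, Epcam was called higher (log2 fold change 0.46, adjusted p = 0.00806) and Cdh1 lower (-0.10, adjusted p = 0.0373). The calls at Grhl2, Ovol1 and Rab25 passed in each of these 6 fits, with the regions of neighbouring genes in the sums. With 2 kb flanks the calls at Krt18 (0.13, adjusted p = 0.514) and Rab25 (-0.15, adjusted p = 0.224) were lost, and with 50 kb flanks that at Krt19 (-0.04, adjusted p = 0.501) was lost and Krt18 was called lower (-0.14, adjusted p = 0.00224).

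Other genes of the programme had calls in both directions; the shares over all loci were 25.5% higher and 26.1% lower with TMM on locus sums, and 9.15% and 55.6% on the region scale. Of 20 further junction genes, 8 loci were higher and 5 lower with TMM on locus sums, and 2 and 7 on the region scale. Ocln, the tight-junction protein occludin, rose by 0.46 and by 0.26 on the 2 scales, and the claudin gene Cldn6 changed by -0.34 and -0.53. Of 17 further regulators, polarity genes and proteases, 5 were higher and 4 lower, and 0 and 9 on the region scale, with Prss8, a membrane-anchored serine protease, at -0.32 and -0.52. Of 15 mesenchymal genes 6 were higher and 6 lower, and 1 and 8 on the region scale, with Cdh11, a mesenchymal cadherin, at 0.30 and 0.10 and Vim, the filament protein vimentin, at -0.27 and -0.46. The list medians were -0.03 for the members, 0.04 for junction genes, 0.01 for regulators and 0.02 for mesenchymal genes, beside 0.00 for all loci.

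Peaks called library by library did not separate the groups. All 6 libraries had 9 of 10 member starts open, with Crb3 closed in each. The member loci held 56, 58 and 61 peaks with aphidicolin and 57, 52 and 48 untreated (two-sided exact permutation test, p = 0.2). The treated lists were longer, at 148292 to 163947 peaks against 116939 to 129546 untreated, and these counts were not adjusted for list length. Of the 10 members, Esrp1 came closest, with 6, 6 and 8 against 5, 5 and 5 peaks (exact permutation p = 0.1, adjusted p = 1), and 3 libraries against 3 cannot go below 0.1.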

How the data were processed

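The data were peak positions with their caller's score, deposited by the authors as 25 pooled lists and 6 single-library lists, and raw read counts over 139000 regions in the 6 libraries of the aphidicolin experiment, also deposited by the authors. The submitters' processing notes name bedtools 2.26.0, MACS2 2.2.0, SAMtools 1.4.1, Bowtie2 2.2.5, cutadapt 2.2.0 and bcl2fastq 2.19.1, with the build mm10. Settings, and any shift of reads for the transposase cut, are not given in the sources used here. Per the file headers and peak names, MEF course lists came from merged replicates and fraction lists are consensus lists scored in 1 library; for the ES course no source used here says. Count columns carry a number from 1 to 3 that no label ties to a sample, so libraries are called a, b and c in that order.

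Fits used edgeR 4.0.16 (glmQLFit, glmQLFTest, two-sided, TMM, filterByExpr) under R 4.3.3, with Benjamini-Hochberg adjustment over all regions or all loci and a threshold of 0.05. Peak overlap needed 1 bp. No pair of libraries was alike within sampling noise. Library numbers were checked for pairing. Deviations of same-numbered libraries correlated at 0.263 (a), 0.012 (b) and 0.154 (c), and those of differently numbered ones at -0.250 to 0.135. These values do not settle whether the numbers are pairs. The labels pair no libraries, so the reported fit had no block. Gene models, starts and promoter sequences came from RefSeq tables of GRCm38.p6, which shares coordinates with mm10; 5 members had a promoter entry, and the starts of the other 5 were set from the gene's known strand. Named regions were the one at each start and the one with the smallest p in each locus. Other regions and sites were chosen after their values were seen. The members and gene lists were chosen with earlier results of these data known. Alternatives tried were DESeq2 1.42.0, other scalings, filters, windows, list lengths and leaving out each library. The procedure was tested on simulated counts. Peak tables were handled with Python 3.11.15, pandas 2.3.3 and SciPy 1.17.1.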

Additional observations from a re-analysis of the deposited data

How the results depend on the processing

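Among values for single regions or loci, 282 comparisons with another setting kept direction and side of the threshold, 26 lost the call, 8 gained it and 25 changed sign; among counts, 86 held and 28 moved. Direction and call at the named regions held under DESeq2, with no filter on low counts and with regions open in all 6 lists only. Offsets fitted along strength gave 2 higher and 10 lower member regions and 1 higher locus. Members' own regions alone (added after seeing the data) gave 11 lower. Leaving out each library gave 2 to 7 higher and 13 to 19 lower regions, and 1 to 2 higher and 2 to 4 lower loci. With 50 kb flanks 1 locus was higher and 7 lower; on the region scale (added) 0 were higher.

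All changes of sign but those at the Krt18 locus (called in the reported fit) were at values that missed the threshold there. With library totals the Cdh1 start was 0.047 and the Esrp1 locus 0.0217. With offsets fitted along strength the Krt18 start was -0.17 and the Crb3 window region 0.0688, and the loci were Cdh1 0.0041, Epcam -0.15, Esrp1 0.0195, Krt18 -0.0506 and Crb3 -0.0509. With 50 kb flanks Esrp1 was 0.0473, and Epcam (-0.16), Krt18 (-0.14) and Crb3 (-0.17) were called lower; with 2 kb Esrp1 was called higher (0.22). On the region scale Crb3 was -0.16. Leaving out 1 library gave -0.34 to 0.13 at the Cdh1 start, -0.0663 to 0.30 at the Epcam region, -0.10 to 0.17 at the Krt18 start, -0.0298 to 0.0202 at the Esrp1 locus and -0.0049 to 0.0785 at the Crb3 locus. The cause was not tested.

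In lists of equal length, member starts open were 5 (ES 0 h), 1 (MEF 6 h), 3 (MEF 36 h) and 3 (Q1), and locus peaks 27 (ES 0 h), 42 (EpiLC), 18 (MEF 6 h) and 25 (MEF 36 h). Within 100 bp (added) 5 starts were open in MEF at 6 h and 36 h, 2 in Q1 and 0 in Q4; within 500 bp 3 in Q1. With 2 kb flanks MEF at 36 h had 40 locus peaks. Other planned settings for the lists moved no count by over 1.5 times.

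A fit with the library number as a replicate block called 30014 regions higher and 30446 lower, against 25061 and 24874. It called Epcam's locus higher (0.28, adjusted p = 0.0372) and Crb3's region lower (-0.18, adjusted p = 0.0285) and changed the call of no other named region or locus. Member regions came to 7 higher and 20 lower, against 6 and 17. Not every library correlated best with its own number. Peak lists without counts hide depth, and regions near 1 CPM limit what could be detected.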

Other observations

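Starts of mesenchymal genes were also followed, with no test of a difference from the members. Of the 9 mesenchymal genes with an entry in the promoter table (Zeb2, Snai1, Twist1, Twist2, Prrx1, Vim, Tgfbr2, Tgfb1 and S100a4), 9 were open in every MEF bulk list and in each of Q1 to Q4, where 5, 3, 4 and 1 of the 10 members and 61.8%, 61.5%, 62.0% and 56.7% of all starts were. In captured DNA 0 of the 9 were open in the MEF nascent list at 6 h and 4 in the mature list at 6 h, and 7 to 9 in those lists at 12 h and 36 h. Of 12 junction genes 10 or 11 were open in the MEF bulk lists and 7, 7, 7 and 6 in Q1 to Q4, with Cldn6, a claudin gene, closed in every MEF list. Of 10 further epithelial regulators 7, 8, 8 and 5 were open in the fractions. Krt7, a simple-epithelium keratin, was the 1 regulator-list gene closed in every MEF list. In ES bulk, Prrx1, a mesenchymal homeobox gene, was closed at all 3 times.

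Across the 25 pooled lists, peak numbers at the Cdh1 locus varied most like those at Mtcl1 (Pearson r = 0.95), Msi2 (0.94) and Arhgef18 (0.94), and those at Epcam most like Susd5 (0.92), Sec14l4 (0.91) and Grp (0.88), among 21877 genes, on log2(1 + peaks) centred on each list. These lists share cells and differ in length, so the values are descriptions only.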
